A study of Mus musculus with 16 samples.

Results

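The genes described here are 38 genes of DNA replication and S phase, taken by symbol out of 47729 genes with values in the libraries. All 38 are protein-coding, and each was given 1 of 5 roles: licensing and the helicase (9 genes), the DNA synthesis machinery (8), deoxynucleotide supply (3), histone supply and chromatin (10), and checkpoint and repair at forks (8). The study asked which transcripts greater epithelial ridge (GER) cells of the neonatal mouse cochlea carry before and after the neighbouring Lgr5+ supporting cells are killed. RNA was read in 16 libraries of P4 cochleae. Each of 8 pools, 4 of control and 4 of DTR mice, held 8 cochleae from 4 mice and gave 1 input and 1 IP library. Input was RNA of 5% of each homogenate, and IP was RNA bound to HA-tagged ribosomes pulled down from the remaining 95%.

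Control mice were GLAST CreERT/+; Rpl22 HA/+ and DTR mice were Lgr5 DTR/+; GLAST CreERT/+; Rpl22 HA/+, so both carried the Cre driver and the tagged ribosomal protein. By the study's methods both received diphtheria toxin and tamoxifen at P1, while the sample labels give no treatment for the controls. In DTR mice the Lgr5 locus drives the human diphtheria toxin receptor, so the toxin kills cells that express Lgr5. The GLAST promoter drives Cre in GER cells and inner phalangeal cells, and the tag is set only in cells that recombine. The dissection left out the lateral wall, the spiral ganglion and Reissner's membrane. Each replicate is a separate pool, and the input and IP of 1 number come from 1 homogenate.

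Before S phase, a cell loads the MCM helicase onto origins with the help of Cdc6 and Cdt1, a step called licensing that geminin blocks once replication has begun. In S phase, Cdc45 and the GINS complex activate the helicase, primase and the polymerases copy both strands behind it with the sliding clamp PCNA, and ribonucleotide reductase and thymidylate synthase supply the nucleotides while chaperones place new histones. E2F factors drive many of these genes at the end of G1, and most supporting cells of the neonatal organ of Corti are quiescent.

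Each library held between 28089836 and 41966310 reads counted on genes. A count of 3 reads was worth 0.0715 to 0.107 CPM (counts per 1000000 reads on genes), a limit from counting alone. The 38 genes had between 12 and 3364 reads per library. Lgr5, the targeted cells' marker, fell by 1.94 on the log2 scale in DTR IP against control IP and by 2.00 in DTR input against control input (adjusted p = 3.5e-08 and 2.22e-08, limma with Benjamini-Hochberg adjustment). Slc1a3, which encodes GLAST, had a mean of 236 ± 21.9 CPM (SD, n = 4) in control IP, and in control input of 281 ± 14.3 CPM. Its log2 ratio of IP over input was -0.20 ± 0.09 (SE) in control and -0.26 ± 0.09 in DTR (adjusted p = 0.102 and 0.0303, limma), so the gene of the Cre driver was not higher in IP. Of 10 marker genes of supporting cells and GER, all were detected in each group, and their summed level ranged from 8976 to 9515 CPM in control IP, against 8954 to 12910 CPM in control input.

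Promoter sequence of RefSeq, build GRCm38, was at hand for 29 of the 38 genes. The other genes are Atad2, Dscc1, Exo1, Gins2, Gmnn, Mcm4, Rfc2, Tipin and Usp1. Each promoter window ran from 250 bases before to 50 bases after a start site. It was searched on both strands for 4 E2F words (TTTCCCGC, TTTCGCGC, TTTGCCGC and TTTGGCGC), for CCAAT, the core of the NF-Y box, and for TTTGAA, a form of the cell cycle homology region (CHR). Overlapping matches of 1 motif were counted once, and no E2F word contains CCAAT.

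The 200 bases before the start site are shown for the 3 genes past the fold criteria in IP after damage (Rrm2, Uhrf1 with both of its start sites, and Clspn), for Dtl, and for Mcm6, whose IP level lay furthest below input in control. Capitals mark E2F words and CCAAT on either strand.
Rrm2, chr12:24708054-24708253, plus strand: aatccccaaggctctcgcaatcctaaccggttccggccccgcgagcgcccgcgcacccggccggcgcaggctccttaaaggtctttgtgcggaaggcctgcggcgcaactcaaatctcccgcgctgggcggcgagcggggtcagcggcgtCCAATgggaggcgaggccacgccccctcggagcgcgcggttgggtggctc
Uhrf1, chr17:56303137-56303336, plus strand: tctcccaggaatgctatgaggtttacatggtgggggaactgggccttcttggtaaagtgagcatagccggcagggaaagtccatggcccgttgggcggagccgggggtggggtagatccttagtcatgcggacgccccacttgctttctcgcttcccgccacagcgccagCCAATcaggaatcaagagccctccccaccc
Uhrf1, chr17:56304113-56304312, plus strand: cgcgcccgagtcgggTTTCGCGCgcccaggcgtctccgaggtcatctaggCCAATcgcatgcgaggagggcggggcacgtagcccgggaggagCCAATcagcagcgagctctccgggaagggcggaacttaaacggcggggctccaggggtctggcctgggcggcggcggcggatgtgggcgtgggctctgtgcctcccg
Clspn, chr4:126556780-126556979, plus strand: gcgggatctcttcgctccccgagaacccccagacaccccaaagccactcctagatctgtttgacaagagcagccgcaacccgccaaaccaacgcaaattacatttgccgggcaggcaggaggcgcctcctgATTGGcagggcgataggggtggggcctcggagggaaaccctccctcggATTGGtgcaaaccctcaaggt
Dtl, chr1:191575545-191575744, minus strand: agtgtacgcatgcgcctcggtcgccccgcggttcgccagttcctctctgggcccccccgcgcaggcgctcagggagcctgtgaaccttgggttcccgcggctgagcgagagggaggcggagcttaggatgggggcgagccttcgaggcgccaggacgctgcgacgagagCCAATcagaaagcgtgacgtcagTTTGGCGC
Mcm6, chr1:128359706-128359905, minus strand: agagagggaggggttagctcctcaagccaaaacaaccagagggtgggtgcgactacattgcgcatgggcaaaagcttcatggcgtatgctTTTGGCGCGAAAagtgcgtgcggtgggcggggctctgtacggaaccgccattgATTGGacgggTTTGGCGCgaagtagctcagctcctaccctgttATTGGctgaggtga

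Mcm6 and Dtl hold E2F words in the bases shown, Mcm6 at 2 places, of which the upstream one joins overlapping words of both strands. The Uhrf1 window with the downstream start holds 1 E2F word and the other Uhrf1 window holds none. Rrm2 has a CCAAT match and no E2F word of these spellings. The E2F word of Clspn lies after its start site, 21 bases on, and is not printed.

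An E2F word was found in 12 of the 29 genes, or 41.4%, against 2.6% of 27025 genes with a promoter window and 4.3% of 11719 tested genes with one. Among 53 other replication genes with a window the share was 28.3%, and its difference from the 29 was not tested. The 12 are Casp8ap2, Cdc6, Cdca7, Clspn, Dtl, Hells, Mcm5, Mcm6, Pola1, Pold3, Ubr7 and Uhrf1. Counted from the start site, the matches began between positions -185 and 21. CCAAT was found in 69% of the 29 genes, against 47.2% of the other replication genes, 41.8% of tested genes and 41.1% of all. TTTGAA was found in 17.2% of the 29, above the 15.1% of the other replication genes and the 14.1% of tested genes but below the 20.2% of all genes. In 46 genes of G2 and mitosis with a window, these shares were 6.5% for the E2F words, 78.3% for CCAAT and 69.6% for TTTGAA. A match describes these letters in this window, and binding was not measured.

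To ask what damage did to S phase transcripts in IP RNA, which also held markers of other cell types, DTR IP was compared with control IP. Of the 38 genes, 18 rose and 0 fell at an adjusted p under 0.05, where 8.29% of the 16994 tested genes rose and 7.27% fell. The fold changes of 35 of the 38 genes were positive. Their median log2 fold change was 0.47, against -0.01 over all tested genes. Rrm2, Uhrf1 and Clspn also passed the criteria the study uses for damage genes, a log2 fold change of at least 1 and a separation above 1.5, which 1.12% of the tested genes passed upward. Separation is the lowest value of the higher group over the highest value of the lower group. In bulk samples, fewer cells of a type and less RNA per cell cannot be told apart, and the same holds for more of either.

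**Figure D1:**
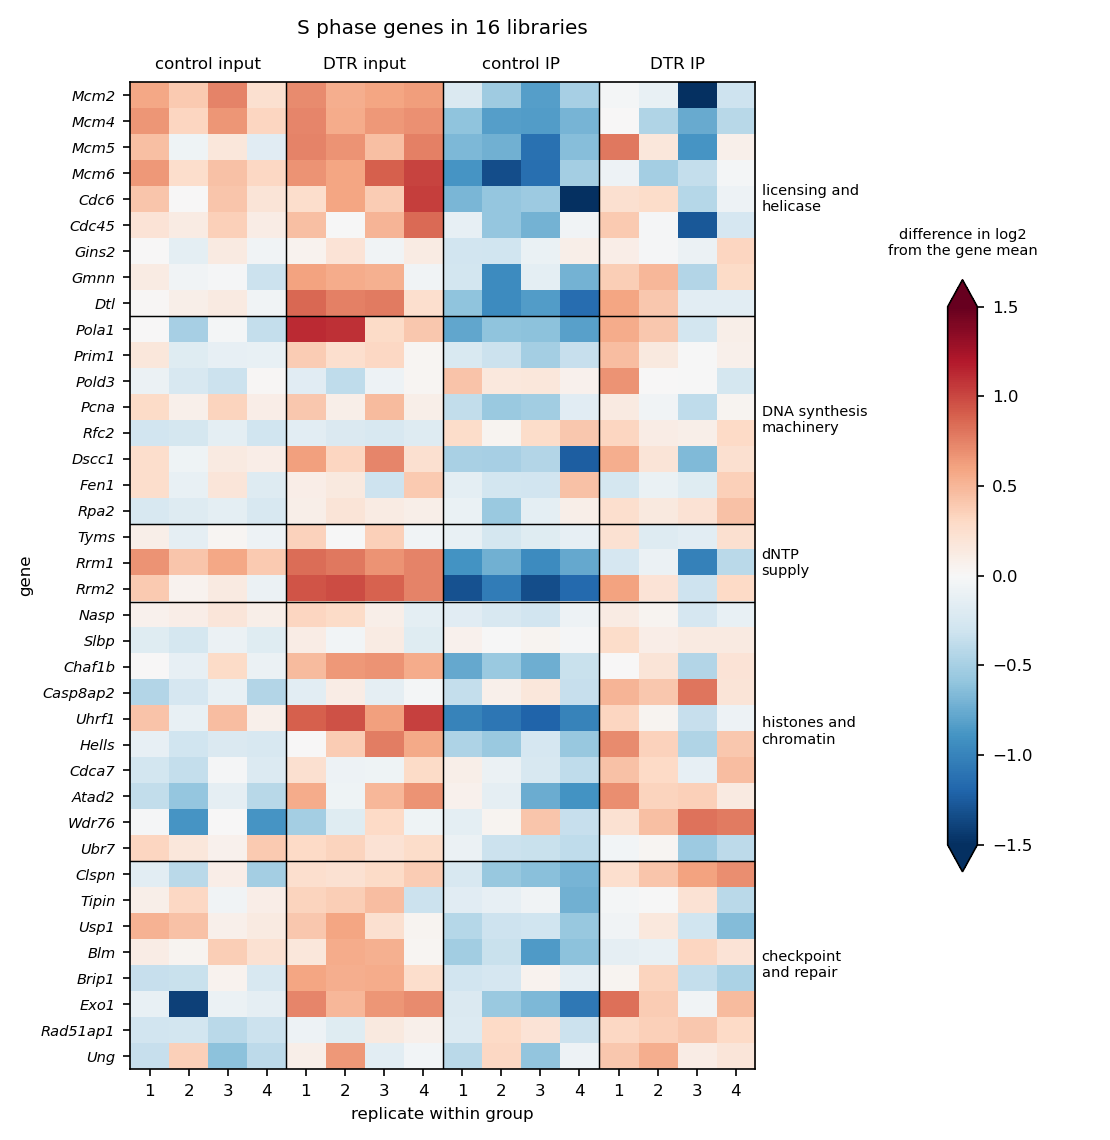
Heat map of the 38 genes (rows, grouped by role) in the 16 libraries (columns, by group and replicate). Colour gives log2(quantile-normalized CPM + 0.5) as the difference from the gene's mean over the 16 libraries, with the scale ending at 1.5 in either direction. Control IP is the bluest block, with means over the 38 genes of 3.44 to 3.56, and replicate 3 of DTR IP is bluer than the other DTR IP libraries in Mcm2, Mcm5, Cdc45 and Gmnn.

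The libraries of a group were not alike in these genes. The mean log2 level over the 38 genes was 4.18, 4.05, 3.70 and 3.98 in DTR IP replicates 1 to 4, and 3.56, 3.49, 3.47 and 3.44 in control IP. Replicate 3 of DTR IP held the lowest value of its group for 23 of the 38 genes, and replicate 1 held the highest for 18. All 4 DTR IP means lay above all 4 control IP means. Without replicate 3 of DTR IP, 22 genes were called, and without replicate 1 of DTR IP, 11 were called. The share of all tested genes called in these fits was not counted, so nothing particular to the S phase genes is drawn from these counts. Of the 18 calls, 8 held whichever library was left out: Mcm6, Dtl, Pola1, Rrm2, Casp8ap2, Uhrf1, Clspn and Exo1.

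Marker genes of other cells moved between the same libraries. The summed level of 8 macrophage markers went from 19.0 to 29.4 CPM among control IP libraries to 41.6 to 68.4 CPM among DTR IP libraries, and 5 of the 8 rose. Of 8 mesenchyme markers, 5 rose, with sums of 5026 to 6233 CPM before and 6467 to 7981 CPM after damage. Of 8 hair cell markers 3 rose and 1 fell, and of 10 supporting cell and GER markers 5 fell and 0 rose. Of 6 endothelial markers 2 rose and 0 fell, with sums of 91.0 to 113 CPM in control IP and 147 to 162 CPM in DTR IP. Of 6 Schwann cell and glia markers 2 fell and 0 rose, with sums of 654 to 1005 CPM in control IP and 443 to 572 CPM in DTR IP. Of the tested neuron and red blood cell markers, 0 rose and 0 fell. No marker of these lists was at 0 throughout a group, and their part in the rise of the S phase genes was not tested.

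Deoxynucleotide supply held the gene with the largest change. Rrm2, the small subunit of ribonucleotide reductase that accumulates in S phase, stood at 8.25, 10.4, 7.35 and 7.85 CPM in control IP replicates 1 to 4 and at 34.4, 24.4, 17.0 and 25.8 CPM in DTR IP. Every DTR IP library was above every control IP library, with replicate 3 the lowest of its group. The log2 fold change was 1.41 ± 0.16 (SE), or 2.66-fold, with an adjusted p of 5.03e-06 (limma, Benjamini-Hochberg). Rrm1, the large subunit of the same enzyme, had a log2 fold change of 0.39 ± 0.15 (adjusted p = 0.0887, limma), and Tyms, thymidylate synthase, one of 0.19 ± 0.13 (adjusted p = 0.36, limma). With the replicate number as a block, Rrm1 passed the test (adjusted p = 0.0433, limma).

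Of the licensing and helicase genes, Mcm5, Mcm6, Cdc6, Gmnn and Dtl rose and 0 fell. Dtl, which encodes the substrate receptor of a ubiquitin ligase that destroys Cdt1 in S phase, stood at 8.91, 7.19, 6.82 and 4.84 CPM in control IP and at 22.6, 18.4, 12.3 and 12.1 CPM in DTR IP. The groups did not overlap, and DTR replicates 3 and 4 lay well below replicates 1 and 2. Its log2 fold change was 1.05 ± 0.19 (adjusted p = 0.00055, limma), with a separation of 1.38.

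Cdc6, the origin protein that loads MCM, rose by 0.83 ± 0.24 on the log2 scale (adjusted p = 0.0214, limma), and its groups did not overlap. Gmnn, geminin, rose by 0.70 ± 0.23 with overlapping groups (adjusted p = 0.0458, limma), a call that ended for 12 of the 16 libraries when left out. Of the MCM subunits some were called and others were not, and the differences between subunits were not tested. Mcm5 rose by 0.83 ± 0.25 and Mcm6 by 0.72 ± 0.16 on the log2 scale (adjusted p = 0.0271 and 0.00498, limma). The groups of Mcm5 overlapped and those of Mcm6 did not. The call of Mcm5 held in 12 of 16 fits with 1 library left out and in 10 of 12 alternative settings. Mcm4 had a log2 fold change of 0.34 ± 0.14 and Mcm2 one of -0.08 ± 0.28 (adjusted p = 0.128 and 0.899, limma).

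Mcm2 spread widely in DTR IP, at 30.5, 27.3, 7.29 and 23.3 CPM in replicates 1 to 4 against 25.6, 21.0, 15.7 and 18.7 CPM in control IP. Replicate 3 lay below every control library and the other DTR IP libraries lay within or above the control range. Without that library the log2 fold change of Mcm2 was 0.36 (adjusted p = 0.112, limma). Cdc45, which joins MCM in the active helicase, shared the low value in replicate 3, at 1.86 CPM against 3.91 to 7.13 CPM in the other DTR IP libraries. Its log2 fold change was 0.08 ± 0.28 and that of Gins2, a GINS subunit, 0.23 ± 0.14 (adjusted p = 0.883 and 0.326, limma).

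In the DNA synthesis machinery, Pola1, Prim1, Dscc1 and Rpa2 rose and 0 fell. Pola1, the catalytic subunit of DNA polymerase alpha, stood at 9.45, 11.3, 10.1 and 7.98 CPM in control IP and at 26.2, 22.1, 13.6 and 17.6 CPM in DTR IP. The groups did not overlap. The log2 fold change was 0.89 ± 0.21 (adjusted p = 0.00584, limma). Prim1, the primase that lays primers in the same complex, rose by 0.52 ± 0.14, and Rpa2, a subunit of the single-strand binding protein RPA, by 0.44 ± 0.12 (adjusted p = 0.0162 and 0.0166, limma).

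Dscc1, of a clamp loader used in sister chromatid cohesion, rose by 0.75 ± 0.24 at low levels, from 1.02 ± 0.42 CPM to 2.38 ± 0.94 CPM (SD, n = 4), and its adjusted p was 0.0433 (limma). Leaving out 1 library ended this call for 13 of the 16 libraries. Pcna, the sliding clamp, had a log2 fold change of 0.34 ± 0.13 and did not pass (adjusted p = 0.0925, limma). Rfc2, a clamp loader subunit, and Pold3, an accessory subunit of polymerase delta, had values of -0.04 ± 0.09 and -0.11 ± 0.16. Fen1, the flap nuclease, had a value of 0.02 ± 0.21 and stood at only 0.59 ± 0.22 CPM in control IP. Of the exonic bases of Fen1, 84.2% lie under genes of the opposite strand, Tmem258 and Gm10143, and the library kit does not mark strand.

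Among the histone and chromatin genes, Chaf1b, Casp8ap2, Uhrf1, Hells and Atad2 rose and all 10 fold changes were positive. Uhrf1, which reads hemimethylated DNA behind the fork and recruits the maintenance methyltransferase, stood at 7.24, 7.19, 5.73 and 6.02 CPM in control IP and at 20.5, 15.7, 11.9 and 14.2 CPM in DTR IP. The groups were far apart, and replicate 1 was the highest of the DTR libraries. The log2 fold change was 1.06 ± 0.16 (adjusted p = 0.000129, limma). Atad2, a bromodomain ATPase of replicating chromatin, stood at 12.7, 11.6, 6.41 and 5.13 CPM in control IP and at 21.5, 15.5, 15.7 and 13.3 CPM in DTR IP. The lowest DTR library was just above the highest control library, and the log2 fold change was 0.80 ± 0.21 (adjusted p = 0.0141, limma).

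Hells, a chromatin remodeller needed for DNA methylation, rose by 0.71 ± 0.21 with overlapping groups (adjusted p = 0.0304, limma), a call that held in 8 of 12 alternative settings. Its partner Cdca7 had a log2 fold change of 0.42 ± 0.15 (adjusted p = 0.0693, and 0.0391 with the replicate block, limma). Chaf1b, of the chromatin assembly factor that follows PCNA, and Casp8ap2, which takes part in histone mRNA processing, each rose by 0.59 on the log2 scale, with SEs of 0.16 and 0.15 (adjusted p = 0.0167 and 0.011, limma). Slbp, which binds the stem-loop of histone mRNAs, and the histone chaperone Nasp each had a value of 0.14, with SEs of 0.09 and 0.11 (adjusted p = 0.313 and 0.457, limma). Wdr76 and Ubr7 had values of 0.57 ± 0.25 and 0.04 ± 0.13 (adjusted p = 0.138 and 0.867, limma).

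Among the checkpoint and repair genes, Clspn, Blm and Exo1 rose and all 8 fold changes were positive. Clspn, claspin, the adaptor that passes the stalled fork signal to the checkpoint kinase Chk1, stood at 1.02, 0.786, 0.617 and 0.490 CPM in control IP and at 1.99, 2.06, 2.48 and 2.53 CPM in DTR IP. All DTR libraries were above all control libraries, and here replicate 1 was the lowest DTR library. The log2 fold change was 1.02 ± 0.18 on the log2(CPM + 0.5) scale, which understates the change of so low a gene (adjusted p = 0.000441, limma). Exo1, an exonuclease of mismatch repair and end resection, stood at 2.33, 1.86, 1.44 and 0.883 CPM in control IP and at 6.11, 3.95, 2.88 and 4.14 CPM in DTR IP. The groups did not overlap and the log2 fold change was 1.04 ± 0.27 (adjusted p = 0.0124, limma).

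Blm, a RecQ helicase that dissolves recombination intermediates, rose by 0.65 ± 0.17 (adjusted p = 0.0142, limma). Ung, which removes uracil from DNA, had a log2 fold change of 0.50 ± 0.23 and passed with the replicate block (adjusted p = 0.16 without it and 0.01 with it, limma). Rad51ap1 had a value of 0.34 ± 0.16 (adjusted p = 0.173, limma). The fork protein Tipin, the deubiquitinase Usp1 and the helicase Brip1 had values of 0.21 ± 0.18, 0.19 ± 0.16 and 0.04 ± 0.17 (adjusted p = 0.477, 0.491 and 0.915, limma).

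**Figure D2:**
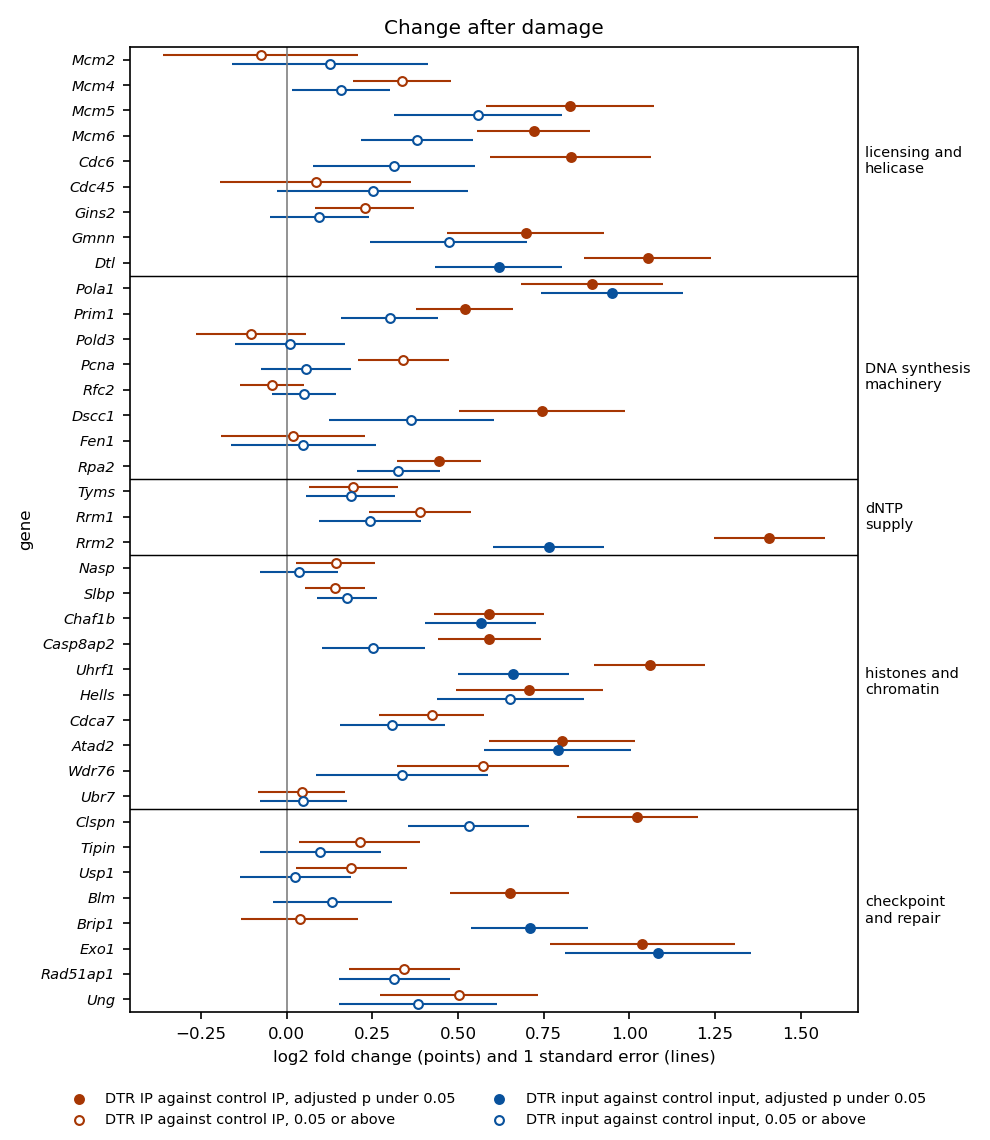
Log2 fold change of each of the 38 genes (points, with lines of 1 standard error) after damage in IP (brown) and in input (blue). Filled points have an adjusted p under 0.05 (limma), which 18 genes have in IP and 8 in input. Nearly all points lie right of 0, and Rrm2 in IP lies furthest right at 1.41.

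DTR input was compared with control input to ask how far the whole dissected tissue showed the same change. Of the 38 genes, 8 rose and 0 fell, where 7.1% of the tested genes rose and 5.33% fell. All 38 fold changes were positive, with a median log2 fold change of 0.31 against -0.02 over all tested genes, in which 46.3% were positive. The genes that rose were Dtl, Pola1, Rrm2, Chaf1b, Uhrf1, Atad2, Brip1 and Exo1. Of these, 7 also rose in IP, which is 7 of 8 in input and 7 of 18 in IP. The share of all tested genes that rose in both was not counted, so nothing is drawn from this overlap. Without replicate 2 of control input, 5 genes were called, and the share of all tested genes called in that fit was not counted. Pola1, Rrm2, Uhrf1, Brip1 and Exo1 held whichever library was left out. With the replicate block, Hells and Mcm6 passed as well (adjusted p = 0.0437 and 0.0423, limma). Of 8 macrophage markers 5 rose in input too, with sums of 114 to 122 CPM in control and 158 to 255 CPM in DTR. Of 6 Schwann cell and glia markers 4 fell, with sums of 1909 to 3353 CPM in control and 905 to 1303 CPM in DTR. Of 10 supporting cell and GER markers 2 rose and 4 fell, and 2 of 8 mesenchyme markers and 1 of 6 endothelial markers rose. The part of these cells in the rise of the S phase genes in input was not tested.

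Exo1 had the largest change in input. It stood at 2.57, 0.817, 2.56 and 2.51 CPM in control input replicates 1 to 4 and at 5.88, 4.61, 4.95 and 5.21 CPM in DTR input. The groups did not overlap, and replicate 2 of control input stood apart from its group. The log2 fold change was 1.08 ± 0.27 (adjusted p = 0.011, limma), and 0.76 without that library (adjusted p = 0.0355). Exo1 alone of the 38 genes passed the fold criteria in input, which 1.33% of the tested genes passed upward, and 0 genes passed them without that library.

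Pola1 stood at 16.4, 12.1, 15.6 and 12.5 CPM in control input and at 37.4, 35.0, 19.6 and 22.7 CPM in DTR input. The groups did not overlap, and DTR replicates 1 and 2 were the highest. Its log2 fold change was 0.95 ± 0.21 (adjusted p = 0.00412, limma). Atad2 stood at 9.27, 8.50, 10.7 and 8.75 CPM in control input and at 18.6, 11.6, 16.7 and 20.1 CPM in DTR input, a log2 fold change of 0.79 ± 0.21 (adjusted p = 0.0181, limma). Replicate 2 of DTR input lay just above the control range.

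Rrm2 rose by 0.76 ± 0.16 and Uhrf1 by 0.66 ± 0.16 on the log2 scale in input (adjusted p = 0.00305 and 0.00965, limma). Dtl rose by 0.62 ± 0.19 and Chaf1b by 0.57 ± 0.16 (adjusted p = 0.0345 and 0.025, limma). Clspn and Hells missed the threshold narrowly, with log2 fold changes of 0.53 ± 0.18 and 0.65 ± 0.21 (adjusted p = 0.0576 and 0.0543, limma). The input groups of Clspn, Hells, Rpa2, Rad51ap1 and Dscc1 did not overlap although these genes were not called. The share of all tested genes without overlap was not counted, so nothing is drawn from this.

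Brip1, the helicase partner of Brca1, was singled out after its values were seen, as the only gene called higher in input and not in IP. It stood at 10.7, 11.4, 13.8 and 11.3 CPM in control input and at 21.7, 20.0, 19.8 and 17.1 CPM in DTR input, a log2 fold change of 0.71 ± 0.17 (adjusted p = 0.00827, limma). In IP it stood at 11.3, 12.2, 13.8 and 11.1 CPM in control and at 15.4, 17.6, 10.6 and 9.60 CPM in DTR. The input groups did not overlap, while in IP DTR replicates 1 and 2 lay above the control range and replicates 3 and 4 below it.

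Whether damage moved the S phase genes differently in IP and in input was tested as the difference between both log2 fold changes. Of the 38 genes, 0 passed, where 0.0118% of the tested genes, 2 genes, passed (limma, Benjamini-Hochberg). An unadjusted p under 0.05 was found for 3 of the 38 genes and for 881 of the 16994 tested genes, so nothing is drawn from this count. The 3 were Rrm2, with a difference of 0.64 ± 0.23 (adjusted p = 0.667, limma), Brip1, with -0.67 ± 0.24 (adjusted p = 0.677, limma), and Blm, with 0.52 ± 0.25 (adjusted p = 0.96, limma). The difference was positive, a larger change in IP, for 28 of the 38 genes, with a median of 0.12 against 0.00 over all tested genes. The standard errors of the difference ran from 0.12 in Slbp to 0.40 in Mcm2.

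**Figure D3:**
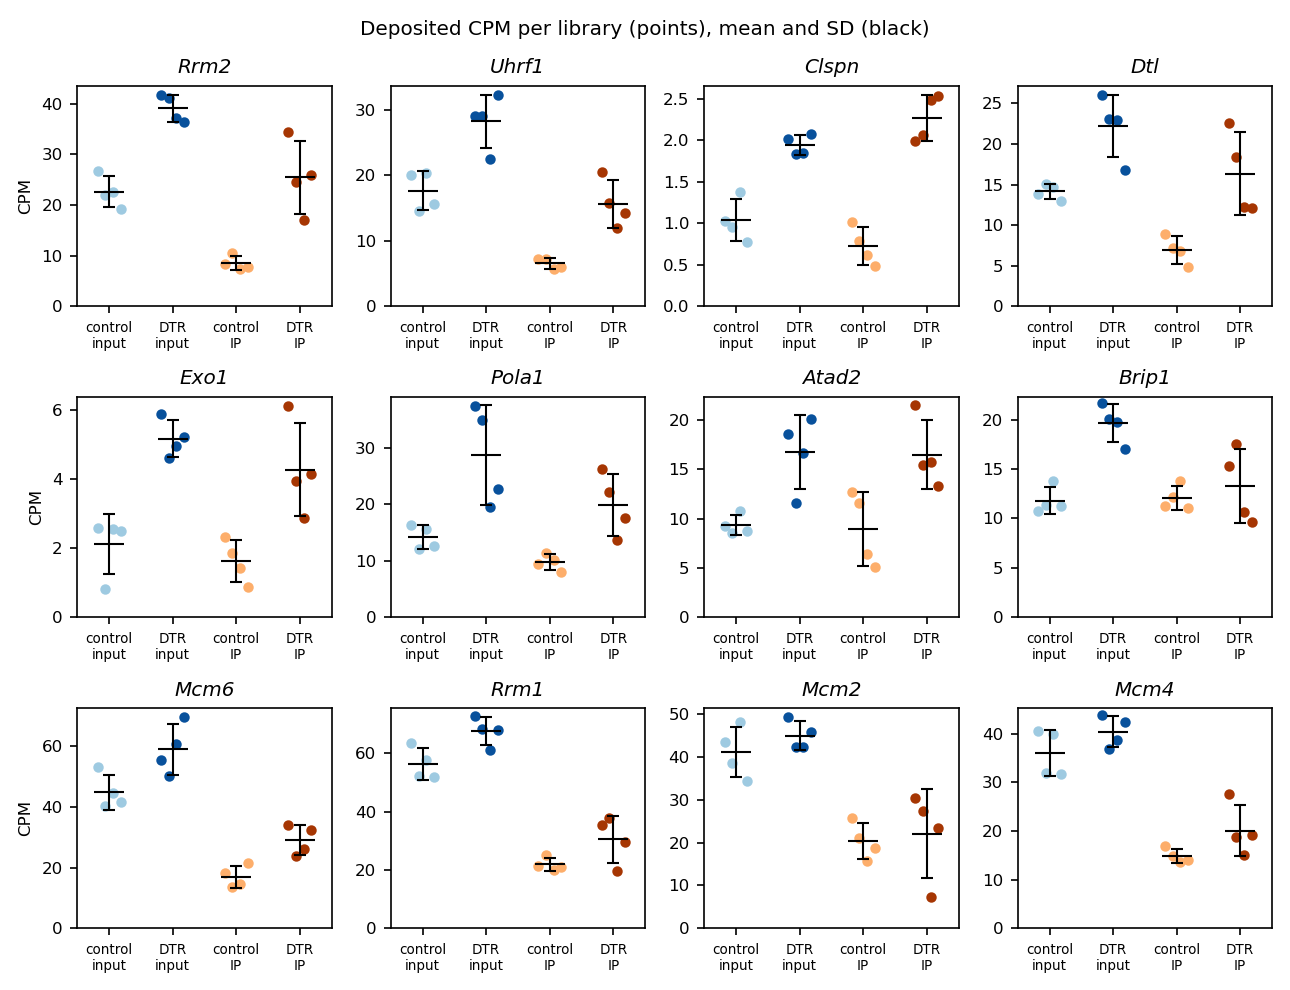
Deposited CPM of 12 of the genes in each library (points), by group on the horizontal axis, with the mean and SD of 4 replicates in black. Rrm2, Uhrf1, Clspn, Dtl, Exo1 and Pola1 have DTR points above all control points in both input and IP, while Mcm6, Rrm1, Mcm2 and Mcm4 have every input point above every IP point of the same treatment.

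IP was compared with input within each treatment to ask how far these transcripts came from the tagged cells. In control mice 1 gene was higher in IP and 16 were lower, where 19.2% of the tested genes were higher and 20.5% lower. The median log2 ratio of IP over input was -0.34 over the 38 genes against 0.00 over all tested genes. In DTR mice 3 genes were higher and 13 lower, where 18.9% of the tested genes were higher and 20.5% lower, and the median was -0.24 against -0.02. The median in DTR was -0.13 without replicate 3 of DTR IP. None of the 38 genes reached a log2 ratio of 2, the study's limit for enrichment, in either treatment. Of the genes lower in IP, 10 were so in both treatments, which is 10 of 16 in control and 10 of 13 in DTR. The share of all tested genes lower in both treatments was not counted, so nothing is drawn from this overlap. With 1 library left out at a time, the control calls of Nasp and Dscc1 held in 7 and 15 of 16 fits. The DTR calls of Pola1, Cdc45, Dtl, Wdr76 and Usp1 held in 5, 7, 10, 10 and 14 of 16 fits. The other calls held in every fit.

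Markers of several cell types were lower in IP as well. All 8 macrophage markers and all 6 endothelial markers were lower in both treatments. Of 8 hair cell markers, 7 were lower and 1 higher in control, and 6 lower and 1 higher in DTR. Mesenchyme differed less, with 5 of 8 markers lower and 0 higher in control, and 2 lower and 1 higher in DTR. The mesenchyme sums in DTR were 7608 to 8771 CPM in input and 6467 to 7981 CPM in IP. The sums in control ran from 114 to 122 CPM in input and from 19.0 to 29.4 CPM in IP for macrophages, and from 261 to 310 CPM in input and from 91.0 to 113 CPM in IP for endothelium. Of the 10 supporting cell and GER markers, 3 were higher and 4 lower in control IP, with a median log2 ratio of -0.09, and 1 was higher and 4 lower in DTR IP, with a median of -0.33. The part of these cells in the lower IP levels of the S phase genes was not tested.

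Mcm6 had the lowest ratio in control, with 53.0, 40.2, 44.5 and 41.6 CPM in input replicates 1 to 4 and 18.2, 13.7, 14.5 and 21.5 CPM in IP. The groups were far apart, and the log2 ratio was -1.38 ± 0.16 (adjusted p = 2.67e-06, limma). Rrm1 stood at 63.5, 52.3, 57.6 and 51.8 CPM in control input and at 21.4, 25.1, 20.1 and 21.1 CPM in control IP, a log2 ratio of -1.35 ± 0.15 (adjusted p = 1.15e-06, limma). Each control input library was far above each control IP library, with a separation of 2.20. Rrm2 stood at 26.7, 22.0, 22.5 and 19.3 CPM in control input, above its control IP values given before, with a log2 ratio of -1.33 ± 0.16 (adjusted p = 3.19e-06, limma).

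In DTR mice, Mcm2, Rrm1 and Mcm4 had the lowest ratios. Mcm2 stood at 49.3, 42.3, 42.2 and 45.9 CPM in DTR input, above its 4 DTR IP values, with a log2 ratio of -1.21 ± 0.28 (adjusted p = 0.00241, limma). Its place in this order rests on replicate 3 of DTR IP, without which the ratio of Mcm2 was -0.77 (adjusted p = 0.000564, limma), while those of Rrm1 and Mcm4 were -1.01 and -0.94. Rrm1 stood at 72.8, 68.1, 61.1 and 68.0 CPM in DTR input and at 35.4, 37.7, 19.5 and 29.5 CPM in DTR IP, a log2 ratio of -1.20 ± 0.15 (adjusted p = 5.5e-06, limma). Mcm4 stood at 43.7, 36.8, 38.7 and 42.3 CPM in DTR input and at 27.5, 18.7, 15.0 and 19.1 CPM in DTR IP, a log2 ratio of -1.06 ± 0.14 (adjusted p = 1.4e-05, limma). For all 3 genes each DTR input library was above each DTR IP library.

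By role, 6 of 9 licensing and helicase genes were lower in control IP (Mcm2, Mcm4, Mcm5, Mcm6, Cdc6 and Dtl), and so were 2 of 3 nucleotide supply genes. In the DNA synthesis machinery Pcna and Dscc1 were lower, with log2 ratios of -0.61 ± 0.13 and -0.77 ± 0.24 (adjusted p = 0.00121 and 0.0158, limma). Of the histone and chromatin genes Nasp, Chaf1b, Uhrf1 and Ubr7 were lower, Uhrf1 by the most at -1.28 ± 0.16 (adjusted p = 5.36e-06, limma). The call of Nasp (adjusted p = 0.046, limma) held in 5 of 12 alternatives and was lost with CPM as deposited or centred on the median, with no filter, with the length and GC trend removed (also with the replicate block), and with edgeR and DESeq2. In DTR IP against DTR input, the calls of Dtl and Pola1 held in 7 and that of Wdr76 in 8 of the 12 alternatives. Of the checkpoint and repair genes Usp1 and Blm were lower, at -0.69 ± 0.16 and -0.76 ± 0.17 (adjusted p = 0.002 and 0.00168, limma). With the replicate block, Pola1 and Tipin also passed as lower in control IP (adjusted p = 0.00603 and 0.0166, limma), and Cdc6 and Mcm5 as lower in DTR IP (adjusted p = 0.0323 and 0.0117, limma).

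Rfc2 was the gene higher in IP in both treatments, with log2 ratios of 0.50 ± 0.09 in control and 0.40 ± 0.09 in DTR (adjusted p = 0.00033 and 0.00216, limma). Of its exonic bases, 15.1% lie under Lat2 on the opposite strand. In DTR mice Casp8ap2 and Wdr76 were higher in IP as well, at 0.53 ± 0.15 and 0.68 ± 0.25 (adjusted p = 0.00885 and 0.0388, limma). Brip1 had a log2 ratio of 0.06 ± 0.17 in control and was lower in IP in DTR, at -0.61 ± 0.17 (adjusted p = 0.802 and 0.00833, limma). The test of this difference between treatments is the test of the damage responses given before, which Brip1 did not pass.

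**Figure D4:**
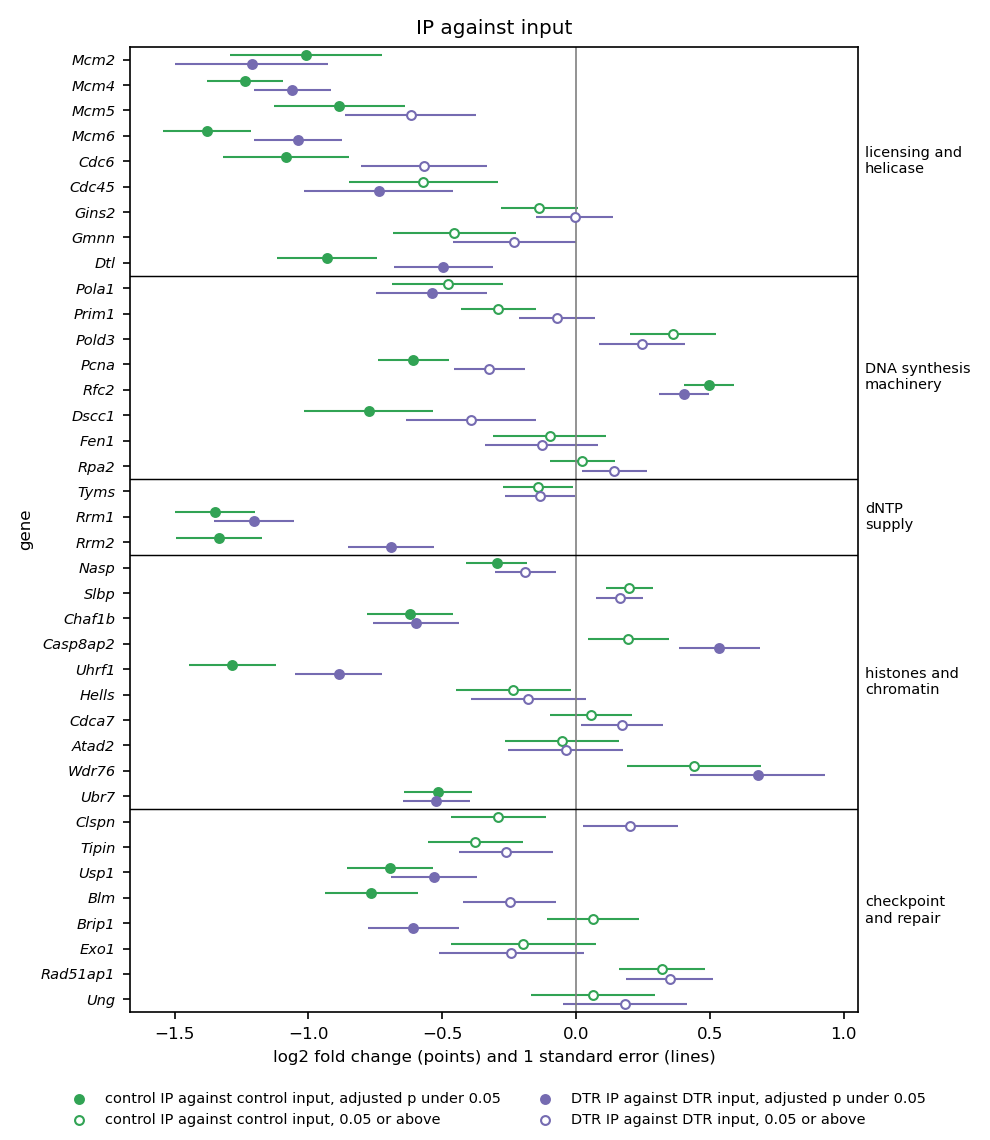
Log2 ratio of IP over input for each of the 38 genes (points, with lines of 1 standard error) in control (green) and DTR mice (purple). Filled points have an adjusted p under 0.05 (limma). Mcm6, Rrm1, Rrm2, Uhrf1 and Mcm4 lie furthest left in control, down to -1.38 for Mcm6, Mcm2 and Rrm1 lie furthest left in DTR mice, and Rfc2 is filled to the right of 0 in both treatments.

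Per kilobase of exons, the mean level over the 4 groups ran from 0.208 CPM per kb for Clspn to 28.0 CPM per kb for Tipin. Pcna followed Tipin at 19.7 CPM per kb and Slbp at 13.4 CPM per kb. Of the genes with the largest changes after damage in IP, Rrm2 stood at 8.62, Uhrf1 at 3.99, Dtl at 1.09 and Exo1 at 0.391 CPM per kb. Exonic bases under another gene of the opposite strand are also a large share in Gins2, 67.3% of which lies under Gse1. In Cdc45, Dscc1, Slbp and Ubr7 this share was 4.5% to 7.8%. Pcna and Nasp have annotated pseudogenes (Pcna-ps1, Pcna-ps2 and Nasp-ps1) that could share reads with them, so their levels are less certain.

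The replication machinery has more subunits than these 38, and 64 other replication genes were counted for comparison, of which 63 passed the filter on low values. In DTR IP against control IP 19 of them rose and 2 fell, with a median log2 fold change of 0.27, and in input 7 rose and 1 fell, with a median of 0.20. With the replicate block 14 were called in input in place of 8. In control IP against input 2 were higher and 18 lower, and in DTR 4 were higher and 15 lower, with medians of -0.15 and -0.11. Mcm3, another subunit of the helicase, was lower in control IP, at -1.59 ± 0.18 (adjusted p = 1.43e-06, limma). After damage Mcm3 rose by 0.96 ± 0.18 in IP and had a log2 fold change of 0.38 ± 0.18 in input (adjusted p = 0.000946 and 0.204, limma).

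Tk1, thymidine kinase of the salvage pathway, had the largest change in IP, from 5.67 ± 0.51 to 18.2 ± 1.45 CPM (SD, n = 4), a log2 fold change of 1.47 ± 0.15 (adjusted p = 8.91e-07, limma). In input it rose by 1.04 ± 0.15 (adjusted p = 5.87e-05, limma). Ticrr and Recql4, both used in firing origins, each rose by 1.18 in IP, with SEs of 0.28 and 0.25 (adjusted p = 0.00692 and 0.00271, limma). Ticrr went from 1.43 ± 0.60 to 4.33 ± 1.86 CPM and Recql4 from 0.55 ± 0.42 to 2.10 ± 0.44 CPM (SD, n = 4). At such low levels the pseudocount of 0.5 understates the change, as for Clspn. Mcm10, which acts in helicase activation, rose by 1.15 ± 0.20 in input (adjusted p = 0.000411, limma). Pole, the catalytic subunit of the leading strand polymerase, fell in both, by 1.27 ± 0.21 on the log2 scale in input and by 0.81 ± 0.21 in IP (adjusted p = 0.000346 and 0.0118, limma). Its level was 32.2 ± 7.41 CPM in control input and 13.6 ± 4.23 CPM in DTR input (SD, n = 4). The other gene that fell in IP was Mcm9, an MCM relative used in repair, at -0.62 ± 0.17 (adjusted p = 0.0166, limma).

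Beside the genes of the next cell cycle phases, the S phase genes had smaller medians. Of 53 genes of G2 and mitosis, 41 rose and 0 fell in DTR IP against control IP, with a median log2 fold change of 1.23, and 34 rose and 0 fell in input, with a median of 0.73. The medians of the 38 S phase genes were 0.47 and 0.31. Past the fold criteria were 27 of the 53 in IP and 3 of the 38 S phase genes, and in input 2 of the 53 and 1 of the 38. The difference between lists was not tested. In control IP against input, 4 G2 and mitosis genes were higher and 32 lower, with a median of -0.70, and in DTR IP against input 7 were higher and 16 lower, with a median of -0.31.

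**Figure D5:**
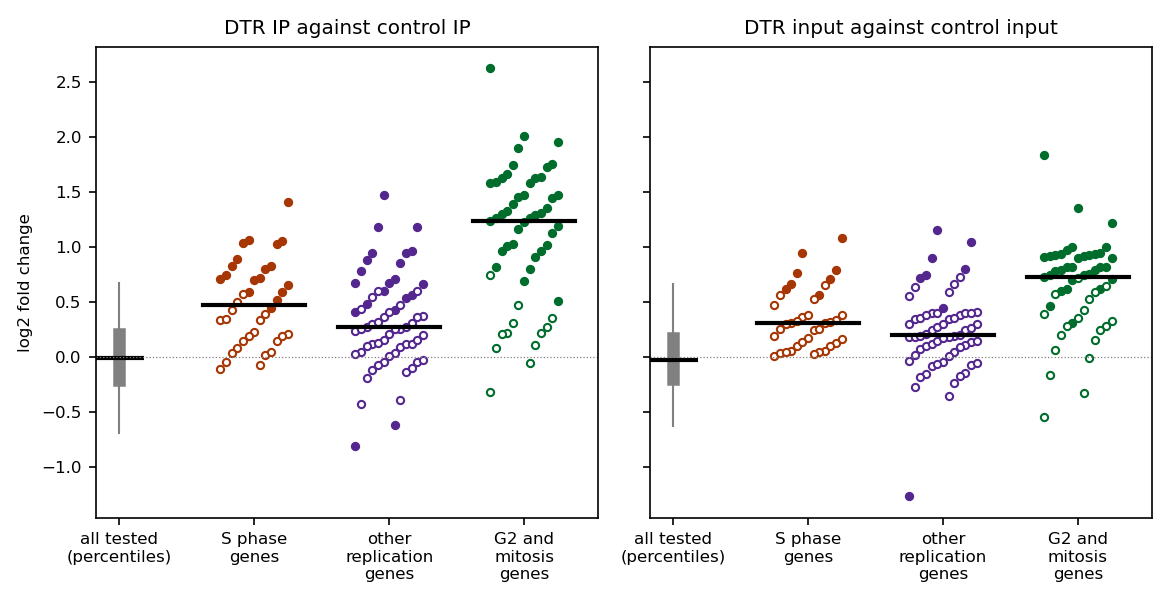
Log2 fold change after damage in IP (left) and input (right) for the 38 S phase genes, the other replication genes and the G2 and mitosis genes (points, filled where the adjusted p is under 0.05, limma, with the median as a black bar). The grey bar spans the middle of all 16994 tested genes (percentiles 25 to 75, thin line 5 to 95). The medians in IP are 0.47, 0.27 and 1.23 against -0.01 for all tested genes.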

How the data were processed

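RNA of 16 libraries was measured by SMART-Seq v4 RNA-seq. The authors used HISAT2 (version 2.0.4) to align reads to GRCm38 and HTSeq to count them, and the deposited unit is CPM (the submitters' processing notes also name TopHat). The annotation release and strand setting are not given in the sources used here. All values above 0 (100%, tolerance 0.01 reads) were whole multiples of 1 read, so read counts were recovered for DESeq2 (version 1.42.0) and edgeR (version 4.0.16), used as alternatives. Depth was 28089836 to 41966310 reads per library.

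After quantile normalization of the deposited CPM, a pseudocount of 0.5 was added and log2 taken. A gene was tested where some group had 0.5 CPM or more in each of its 4 replicates, as 16994 genes did. All 16 libraries entered 1 limma fit (version 3.58.1, run in R 4.3.3) with a trend of variance on mean, a two-sided moderated test and Benjamini-Hochberg adjustment over all tested genes. A gene is called, or rose or fell, at an adjusted p under 0.05. For separation, values under the 10th percentile (1.08 CPM) were set to it. Levels, SDs and overlap of groups use deposited CPM, and SEs come from the fit. The fit was tested on simulated data whose libraries were drawn independently. That test does not cover data in which libraries of the same number deviate together, as they did here.

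The members and gene lists were chosen with earlier results of these data known. All 38 members are named. Library values are given for the 3 called members with the largest change in each comparison and for those past the fold criteria. Of the other replication genes the 3 called genes with the largest change in each damage comparison are named, and Mcm3 and Mcm9 are named outside this rule. Libraries of the same number deviated together (lowest correlation 0.29 to 0.31 over 4 pairs per comparison). Between different numbers the mean was -0.12 to -0.13. Centring each group on its own mean forces that value below 0, so it adds no separate support. Input and IP of 1 number share a pool. For DTR against control, the pairing rests on the correlation between libraries of the same number. Blocked values are given where they change a call. GENCODE M21 gave exon lengths and overlaps, and RefSeq the promoters. Alternatives were other scalings, pseudocounts, filters and tools, the replicate block, and leaving out each library.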

Additional observations from a re-analysis of the deposited data

Results flagged for a closer look

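Of 152 groups of 4 libraries (38 genes in 4 groups), 7 held a library whose CPM stood apart from the other 3 by Dixon's ratio, and chance flags about 1 in 20 groups. In control input, Prim1 was at 14.9 CPM in replicate 1 against 11.6 to 12.1 CPM in the others, and Exo1 at 0.817 CPM in replicate 2 against 2.51 to 2.57 CPM. In control IP, replicate 4 was low for Dscc1, at 0.392 CPM against 1.18 to 1.31 CPM, and for Tipin, at 28.5 CPM against 46.4 to 49.2 CPM. In DTR input, Tipin was at 41.4 CPM in replicate 4 against 66.0 to 67.9 CPM. In DTR IP, Fen1 was at 1.12 CPM in replicate 4 against 0.63 to 0.712 CPM, and Slbp at 101 CPM in replicate 1 against 86.4 to 88.9 CPM.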

How the results depend on the processing

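In the other settings the median log2 fold change of the 38 genes stayed at 0.45 to 0.53 in IP after damage, 0.29 to 0.34 in input, -0.41 to -0.32 for control IP over input and -0.29 to -0.23 for DTR IP over input. Genes called in IP after damage (18) came to 10 with only the compared groups fitted, and to 11 to 22 with 1 library left out. In input (8) they came to 13 with the replicate block and the length and GC trend removed, and to 5 to 10 with 1 library left out. With the replicate block alone they were 21 in IP, 10 in input, 19 for control IP over input and 18 for DTR IP over input. Genes past the fold criteria in IP (3) numbered 5 without the separation criterion and 2 to 5 with 1 library left out. In input (1) they numbered 0 with a filter at 2 CPM, 0 with a pseudocount of 1, and 0 to 1 with 1 library left out. Other replication genes called in input (8) numbered 14 with the replicate block, 16 with the block and the length and GC trend removed, and 5 to 10 with 1 library left out. The median of DTR IP over input ran from -0.36 (without DTR input replicate 4) to -0.13 (without DTR IP replicate 3). For these changes the cause was not tested. The share of all tested genes called in the other settings was not counted, so the changed counts are not read as particular to these genes. DESeq2 and edgeR each called 18 genes in IP and 10 in input after damage. The difference between the responses of IP and input gave 0 calls in every setting run. Depth limits the genes near 1 CPM (Fen1, Clspn, Dscc1), where 3 reads are 0.0715 to 0.107 CPM.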
